A study of Mus musculus with 8 samples.

Results

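The genes described are p53 itself (Trp53 in the mouse) and 31 of its regulators and known targets, 32 genes in all of the 55487 in the deposited tables. They were chosen by name from what is known of the p53 pathway and matched by gene symbol, and all 32 had enough reads to be among the 14228 genes tested. Their RNA was measured in Lewis lung carcinoma (LLC) cells, a mouse lung carcinoma line, grown in culture in DMEM with serum and antibiotics. There were 4 libraries of wild-type cells and 4 libraries of ΔAgo2 cells, in which Ago2 was knocked out. The knock-out was made with a lentivirus that carries Cas9 and a guide RNA to Ago2, followed by puromycin and by sorting of single cells into clones, so the ΔAgo2 cells may represent a clone; which clone was sequenced, and whether the wild-type cells went through the same steps, is not given in the sources used here. The labels call the 4 libraries of each genotype biological replicates, and their titles name no batch. They do not say how separate the cultures were, so the p-values measure the spread between these libraries.

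The p53 protein is a transcription factor that is kept scarce by Mdm2, a ubiquitin ligase which p53 itself induces, so that the pair form a feedback loop. DNA damage and other stresses free p53 from Mdm2, and p53 then binds paired copies of a short DNA element near its target genes, whose products halt the cell cycle, trigger apoptosis, adjust metabolism or repair DNA. Ago2 is a member of the Argonaute family of proteins, which carry microRNAs (miRNAs) and silence the mRNAs they pair with. The paper states that its paralogs bind miRNAs too and that only Ago2 can cleave the target RNA. Both p53 and several of its targets are known to be linked to miRNAs. The comparison of wild-type with ΔAgo2 cells asks how the RNA levels of the pathway stood in cells without Ago2.

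Libraries held between 39628101 and 68530912 counts. Ago2, the targeted gene, was read 15049, 19033, 34965 and 3842 times in wild-type replicates 1 to 4, and 23871, 12319, 16662 and 16715 times in the ΔAgo2 ones. A small edit by Cas9 need not lower the RNA, so these counts do not check the genotype and the labels were used. The paper reports a Western blot of Ago2 protein in wild-type and ΔAgo2 LLC cells. Wild-type replicate 4 stood apart. Its median Spearman correlation with the other wild-type libraries was 0.864, against 0.948 to 0.986 in the other 7 libraries with their own group, and reads of mitochondrial genes made up 0.540% of it, where they made up 2.39% to 4.51% of the others. The log2 fold change of each p53 gene is therefore given with and without it, while the CPM means ± SD (n = 4) include it. Of 5 epithelial markers, the keratin genes Krt8 and Krt18 were expressed and Krt19 was low, at 0.27 to 4.7 TPM. Epcam and Cdh1 were under 1 TPM in every library. The 3 alveolar markers (Sftpc, Sftpb and Nkx2-1) and the 2 endothelial markers (Pecam1 and Cdh5) were also under 1 TPM throughout. Of 5 immune markers, 4 were under 1 TPM in every library. Cd68 was expressed, at 16.5 to 94.6 TPM in wild-type and 12.8 to 44.4 TPM in ΔAgo2 libraries.

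The promoters were searched for the DNA element that p53 binds. Many targets carry it elsewhere, Mdm2 in its first intron. Windows of 300 bases around the annotated start, 250 before and 50 after it, were found in RefSeq (GRCm38.p6) for 24 of the 32 genes. The 10-base p53 consensus, which reads the same on both strands, had an exact match in the windows of 10 of the 24 genes (41.7%), against 9.55% of the 27025 genes with a window. The 10 were Trp53, Mdm2, Cdkn1a, Ccng1, Gadd45a, Bax, Aen, Ei24, Sesn1 and Polk. Adjoining copies spanning 20 bases, with the core C and G of each kept and at most 2 other mismatches, were found for 2 of the 24 genes, Cdkn1a and Ccng1, against 0.392% of all genes, and each had 1 mismatch. These windows are shown for Cdkn1a and Ccng1 because they hold the adjoining pair, and for Mdm2 because it closes the feedback loop; capitals mark the matches. The Cdkn1a window shown is at chr17:29090729-29091028 on the plus strand. Cdkn1a has a further window, around another annotated start, at chr17:29093519-29093818 on the plus strand, and it held no match of either kind. The Ccng1 window is at chr11:40755237-40755536 on the minus strand and the Mdm2 window at chr10:117710709-117711008 on the minus strand.
Cdkn1a: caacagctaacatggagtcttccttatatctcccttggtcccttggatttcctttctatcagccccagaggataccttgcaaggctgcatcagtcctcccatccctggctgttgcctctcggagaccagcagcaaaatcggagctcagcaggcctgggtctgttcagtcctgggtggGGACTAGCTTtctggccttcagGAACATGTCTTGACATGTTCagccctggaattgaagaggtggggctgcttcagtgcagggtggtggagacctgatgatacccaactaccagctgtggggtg
Ccng1: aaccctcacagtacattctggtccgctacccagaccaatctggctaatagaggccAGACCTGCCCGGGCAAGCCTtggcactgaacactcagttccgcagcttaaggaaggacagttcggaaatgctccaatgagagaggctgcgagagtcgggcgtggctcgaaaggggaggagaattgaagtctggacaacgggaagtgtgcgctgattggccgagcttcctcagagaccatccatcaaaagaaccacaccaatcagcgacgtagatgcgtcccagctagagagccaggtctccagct
Mdm2: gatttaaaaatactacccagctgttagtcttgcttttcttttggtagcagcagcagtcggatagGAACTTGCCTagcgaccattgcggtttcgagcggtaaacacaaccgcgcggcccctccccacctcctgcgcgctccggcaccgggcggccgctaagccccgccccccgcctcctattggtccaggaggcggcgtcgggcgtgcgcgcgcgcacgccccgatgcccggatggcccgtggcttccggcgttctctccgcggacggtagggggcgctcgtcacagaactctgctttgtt
The match is a description of the letters in these windows; p53 binding was not measured.

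No p53 gene passed the test between the genotypes. With edgeR's quasi-likelihood test and Benjamini-Hochberg adjustment over all tested genes, 0 of 32 had an adjusted p under 0.05, where 0.295% of all tested genes (42 genes) did, 11 of them with the higher level in ΔAgo2 cells (0.0773%) and 31 with the lower (0.218%). The smallest adjusted p was 0.524, for Phlda3. DESeq2 also called 0 of the 32, where it called 2.23% of all genes. At an unadjusted edgeR p under 0.05 there were 2 of 32, Phlda3 and Cdkn1a, both with the lower level in ΔAgo2 cells. That is 6.25% of the p53 genes, beside 7.34% of all tested genes in either direction and 4.62% with ΔAgo2 lower, a share near the background. The fitted log2 fold change (ΔAgo2 against wild-type) was below 0 for 27 of 32, where it was below 0 for 58.8% of all genes, and its median was -0.33, beside -0.11 over all genes. Without wild-type replicate 4, 26 of 32 were below 0 (54.2% of all genes) and the median was -0.35, beside -0.04. The sign of the median of the p53 genes depended on the fit. In every fit run it lay below the median over all genes, and this difference was not tested. With limma on log2(TPM + 1) and all 8 libraries the median was 0.08, beside 0.15 over all genes. Without wild-type replicate 4 in that fit it was -0.30, beside 0.03. With limma-voom on counts and all 8 libraries it was -0.13, beside 0.03. That fit changed the model and kept the counts, while on log2(TPM + 1) scale and model changed together. How much of the further move to 0.08 came from the scale was not tested. In bulk libraries, less RNA per cell and fewer cells with the RNA cannot be told apart.

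**Figure D1:**
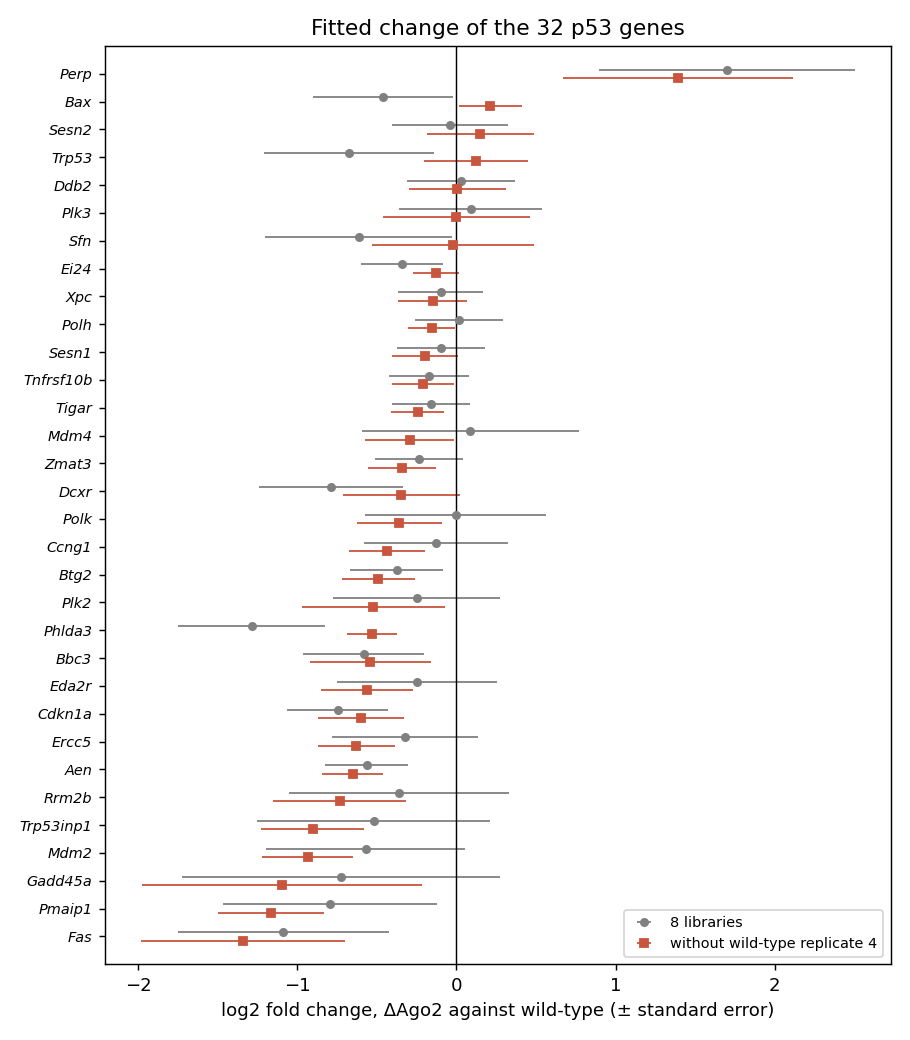
Fitted log2 fold change of each of the 32 p53 genes (x axis, ΔAgo2 against wild-type, points with standard error) with all 8 libraries (grey circles) and without wild-type replicate 4 (red squares), ordered by the latter. Of the grey circles 27 lie below 0 and of the red squares 26, none passed an adjusted p of 0.05, and Trp53, Bax and Sesn2 moved from below to above 0 when the library was left out.

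The regulators of the pathway are Trp53, Mdm2 and Mdm4. Trp53 (ENSMUSG00000059552.13, chromosome 11 from 69580359 to 69591873, GRCm38) had 165, 283, 96.8 and 717 CPM (counts scaled to 1 common library size, with TMM factors) in wild-type replicates 1 to 4. In ΔAgo2 replicates 1 to 4 it had 197, 221, 149 and 223 CPM. The ΔAgo2 values lay inside the wild-type range, and wild-type replicate 4 was the highest of all 8. The fitted log2 fold change of Trp53 was -0.68 (standard error 0.53, adjusted p = 0.775, edgeR) with that library and 0.13 (standard error 0.33, adjusted p = 0.904, edgeR) without it, so its sign turned on a single library.

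Mdm2, on chromosome 10 from 117688875 to 117710758, went the other way in the library that stood apart. It had 374, 175, 368 and 25.5 CPM in wild-type replicates 1 to 4, and 166, 166, 193 and 110 CPM in ΔAgo2 replicates 1 to 4. Wild-type replicates 1 and 3 were above every ΔAgo2 library, wild-type replicate 2 fell between ΔAgo2 libraries, and wild-type replicate 4 was below all of them. The fitted value was -0.57 (standard error 0.62, adjusted p = 0.831, edgeR). Without wild-type replicate 4 it was -0.93 (standard error 0.28, unadjusted p = 0.00941 and adjusted p = 0.218, edgeR), from means of 305.5 ± 113 CPM (SD, n = 3) in the wild-type libraries and 159 ± 34.9 CPM (SD, n = 4) in the ΔAgo2 libraries. Mdm4, the relative of Mdm2 that binds p53 and blocks its activity, was at 201, 147, 336 and 12.1 CPM in wild-type replicates 1 to 4 and at 185, 148, 231 and 177 CPM in ΔAgo2 cells. The groups overlapped, and its log2 fold change was 0.09 with all libraries and -0.29 without wild-type replicate 4.

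**Figure D2:**
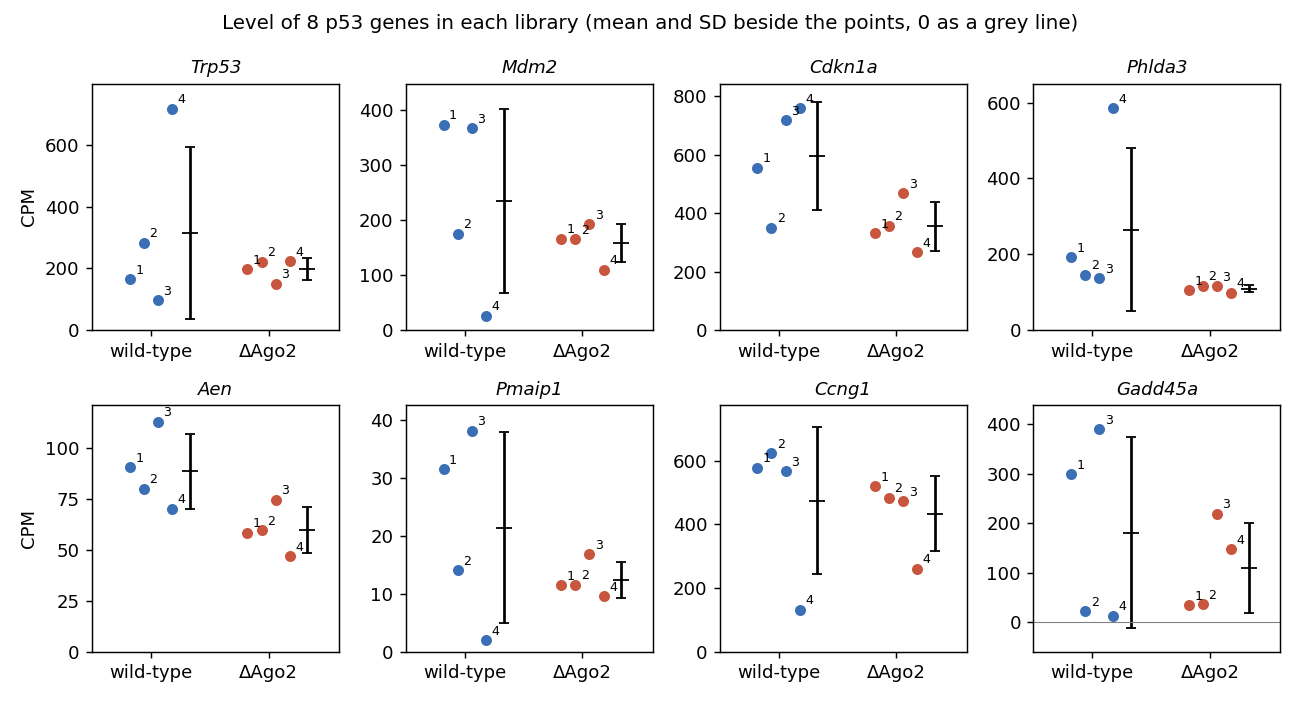
Level of 8 p53 genes (y axis, CPM) in the 4 wild-type (blue) and 4 ΔAgo2 (red) libraries, numbered by replicate, with the mean and SD of each group beside the points. Wild-type replicate 4 is the highest of 8 for Trp53, Cdkn1a and Phlda3 and the lowest for Mdm2, Pmaip1, Ccng1 and Gadd45a, and the groups do not overlap for Phlda3.

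Of the 7 genes of cell-cycle arrest, 6 had a log2 fold change below 0, where 58.8% of all tested genes did, and their median was -0.37. Beside 7.34% of all tested genes, 1 of the 7 had an unadjusted edgeR p under 0.05. That gene was Cdkn1a (chromosome 17 from 29090976 to 29100727), which encodes p21, the inhibitor of cyclin-dependent kinases through which p53 halts the cell cycle. Cdkn1a was at 556, 350, 719 and 759 CPM in wild-type replicates 1 to 4, and at 331, 357, 468 and 267 CPM in ΔAgo2 replicates 1 to 4. Only wild-type replicate 2 lay within the ΔAgo2 range, between replicates 1 and 2. The log2 fold change of Cdkn1a was -0.74 (standard error 0.32, unadjusted p = 0.0399 and adjusted p = 0.657, edgeR), a level 1.68-fold higher in wild-type cells. An exact permutation test on CPM gave p = 0.0857 (two-sided). Without wild-type replicate 4 it was -0.60 (standard error 0.27, adjusted p = 0.409, edgeR), and it stayed between -0.95 and -0.50 over the 23 alternatives run, with no adjusted p below 0.205 from any of the tools.

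Ccng1, which encodes cyclin G1 and carries the other adjoining pair shown above, was at 578, 623 and 567 CPM in wild-type replicates 1 to 3 and 132 CPM in replicate 4. Its ΔAgo2 libraries were at 520, 483, 473 and 260 CPM. Wild-type replicates 1 to 3 were all above the ΔAgo2 libraries and replicate 4 was below them, and the log2 fold change was -0.13 with and -0.43 without that library (adjusted p = 0.953 and 0.495, edgeR). Gadd45a, a growth arrest gene induced by DNA damage, varied most within genotype among the arrest genes. It was at 299, 22.6, 390 and 13.4 CPM in wild-type replicates 1 to 4 and at 34.3, 37.0, 219 and 148 CPM in ΔAgo2 replicates 1 to 4, so each genotype held libraries with high and with low levels. An annotated transcript on the opposite strand covers 19.1% of its exon bases, and reads of the pair cannot be told apart unless the counting used strand. The polo-like kinase genes Plk2 and Plk3 were at 53.04 ± 46.0 and 84.4 ± 47.2 CPM in wild-type cells and at 44.6 ± 8.96 and 89.8 ± 33.1 CPM in ΔAgo2 cells (SD, n = 4). Btg2, an antiproliferative gene, was at 23.95 ± 7.40 and 18.5 ± 2.64 CPM in the same order. Sfn, which encodes stratifin, was near the lower limit of expression at 1.52 ± 1.18 and 0.986 ± 0.170 CPM. With all libraries and then without wild-type replicate 4, the log2 fold changes were -0.72 and -1.10 for Gadd45a, -0.25 and -0.52 for Plk2, -0.37 and -0.49 for Btg2 and -0.61 and -0.022 for Sfn, and that of Plk3 was 0.089 and 0.00071. The values of Plk2, Sfn and Plk3 moved the most in proportion, and none of the 5 had an unadjusted edgeR p under 0.05 in either fit.

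Of the 12 apoptosis genes, 11 had a log2 fold change below 0 (median -0.49), where 58.8% of all tested genes did. An unadjusted edgeR p under 0.05 was reached by 1 of the 12, Phlda3, beside 7.34% of all tested genes. Phlda3 (chromosome 1 from 135766119 to 135769136) encodes a small protein that restrains the survival kinase Akt. It was at 192, 145, 136 and 586 CPM in wild-type replicates 1 to 4 and at 104, 116, 115 and 98.0 CPM in ΔAgo2 replicates 1 to 4. Every wild-type library was above every ΔAgo2 library. It was the only p53 gene of the 32 whose groups did not overlap with all 8 libraries, which is 3.12% of the p53 genes, where 6.07% of all tested genes had groups without overlap (2.98% with ΔAgo2 lower). The exact permutation test on CPM gave p = 0.0286 (two-sided), the smallest that 4 libraries against 4 allow. Groups without overlap always give this value, so it adds nothing to the lack of overlap. The log2 fold change of Phlda3 was -1.29 (standard error 0.46, unadjusted p = 0.0188 and adjusted p = 0.524, edgeR), and -0.53 (standard error 0.16, adjusted p = 0.212, edgeR) without wild-type replicate 4. Wild-type cells were thus 2.44-fold higher with that library and 1.44-fold higher without it.

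The mitochondrial effectors and the death receptor genes all overlapped between the genotypes. The BH3-only genes Pmaip1 (Noxa) and Bbc3 (Puma) switch on the mitochondrial pathway, and Bax forms the pore. Pmaip1 was at 31.4, 14.0, 38.1 and 1.92 CPM in wild-type replicates 1 to 4 and at 11.5, 11.5, 16.8 and 9.52 CPM in ΔAgo2 replicates 1 to 4, with a log2 fold change of -0.79 (adjusted p = 0.784, edgeR). Without wild-type replicate 4 it was -1.16 (standard error 0.34, adjusted p = 0.194, edgeR), the smallest adjusted p of any p53 gene in that fit. Bbc3 averaged 52.1 ± 25.2 CPM in the wild-type libraries and 34.8 ± 9.19 CPM in the ΔAgo2 libraries. Bax was at 110, 77.0, 59.6 and 274 CPM in wild-type replicates 1 to 4, and at 94.6, 96.9, 96.5 and 89.7 CPM in ΔAgo2 cells. The 4 ΔAgo2 values of Bax sat inside the wild-type range, and its log2 fold change went from -0.46 to 0.21 when wild-type replicate 4 was left out. A coding gene annotated on the same strand covers 12.2% of its exon bases. Of the death receptor genes, Tnfrsf10b, which encodes the mouse TRAIL receptor, was at 68.0 ± 15.6 and 60.2 ± 5.79 CPM. Eda2r, which encodes a receptor of ectodysplasin A2, was at 67.7 ± 40.1 and 57.0 ± 19.3 CPM, and Fas was at 1.57 ± 1.58 and 0.741 ± 0.329 CPM (wild-type and ΔAgo2, SD, n = 4). With and then without wild-type replicate 4, the log2 fold changes were -0.58 and -0.54 for Bbc3, -0.17 and -0.21 for Tnfrsf10b, -0.25 and -0.56 for Eda2r and -1.09 and -1.34 for Fas, so Eda2r depended most on that library.

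Among the remaining apoptosis genes, Aen, which encodes a nuclease that promotes apoptosis, came closest to separating the genotypes. It was at 90.6, 80.0, 113 and 70.0 CPM in wild-type replicates 1 to 4 and at 58.4, 59.5, 74.4 and 46.9 CPM in ΔAgo2 replicates 1 to 4. Only ΔAgo2 replicate 3 and wild-type replicate 4 crossed over. The log2 fold change of Aen was -0.56 (standard error 0.26, adjusted p = 0.680, edgeR) and -0.65 (standard error 0.19, adjusted p = 0.204, edgeR) without wild-type replicate 4. Trp53inp1, a stress-induced nuclear protein gene, was at 111, 68.5, 110 and 4.04 CPM in wild-type replicates 1 to 4 and at 50.0, 39.7, 83.5 and 31.4 CPM in ΔAgo2 replicates 1 to 4. The low value of wild-type replicate 4 was below every other library, and the log2 fold change was -0.52 with it and -0.90 without it. Ei24, which encodes a membrane protein of the endoplasmic reticulum, was at 144 ± 40.3 and 114 ± 4.76 CPM, and Zmat3, an RNA-binding zinc finger gene, at 283 ± 57.9 and 241 ± 60.0 CPM. Their log2 fold changes were -0.34 and -0.23 with wild-type replicate 4, and -0.13 and -0.34 without it. Perp, which encodes a membrane protein of cell junctions, was the exception in direction and was barely expressed. It was read 3, 1, 15 and 0 times in wild-type replicates 1 to 4 and 18, 14, 7 and 14 times in ΔAgo2 replicates 1 to 4, a log2 fold change of 1.70 (standard error 0.80, adjusted p = 0.693, edgeR) that rests on those few counts and was 1.39 without wild-type replicate 4.

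The 4 metabolism genes all had a log2 fold change below 0, with a median of -0.13, where 58.8% of all tested genes were below 0. Sesn1 and Sesn2 encode sestrins, which restrain mTOR signaling. They were at 27.2 ± 7.09 and 135 ± 49.5 CPM in wild-type cells and at 25.4 ± 4.19 and 131 ± 47.2 CPM in ΔAgo2 cells. Tigar, an enzyme that lowers glycolysis, was at 19.97 ± 3.00 and 17.9 ± 1.16 CPM. With and then without wild-type replicate 4, the log2 fold changes were -0.096 and -0.20 for Sesn1 and -0.16 and -0.24 for Tigar. Those of Sesn2 were -0.040 and 0.15, so Sesn2 changed sign. Dcxr, a dicarbonyl and xylulose reductase, was at 46.1 ± 25.9 and 26.7 ± 10.4 CPM, with a log2 fold change of -0.79 (adjusted p = 0.732, edgeR) and -0.35 without wild-type replicate 4. Of the 6 repair genes, 4 were below 0, beside 58.8% of all tested genes, and their median was -0.05. The damage recognition genes Xpc and Ddb2 were at 27.3 ± 5.59 and 4.58 ± 1.30 CPM in wild-type cells and at 25.5 ± 4.84 and 4.67 ± 0.492 CPM in ΔAgo2 cells. The coding gene Acp2 overlaps 23.8% of the exon bases of Ddb2 on the opposite strand. The translesion polymerase genes Polk and Polh were at 60.1 ± 40.9 and 44.4 ± 13.04 CPM against 59.9 ± 15.1 and 44.9 ± 2.51 CPM. Ercc5, the nuclease that cuts beside bulky lesions, was at 68.2 ± 35.6 and 54.5 ± 15.8 CPM, and Rrm2b, the p53-induced subunit of ribonucleotide reductase, at 24.3 ± 22.8 and 19.0 ± 5.92 CPM. Leaving out wild-type replicate 4 moved the log2 fold changes from -0.0048 to -0.36 for Polk, from -0.32 to -0.63 for Ercc5, from -0.36 to -0.73 for Rrm2b and from 0.015 to -0.16 for Polh. Xpc went from -0.10 to -0.15 and Ddb2 from 0.028 to 0.0056. Across the 6, the median log2 fold change was -0.26 without wild-type replicate 4.

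Leaving out wild-type replicate 4 brought 6 of the 32 under an unadjusted edgeR p of 0.05, all with the lower level in ΔAgo2 cells (18.8%, beside 12.6% of all genes in either direction and 7.04% with ΔAgo2 lower). They were Mdm2, Pmaip1, Aen, Phlda3, Trp53inp1 and Ercc5, and none passed the adjusted p, where 0.777% of all genes did. With 3 wild-type libraries, 4 p53 genes had groups without overlap, Ccng1, Aen, Phlda3 and Tigar, all with ΔAgo2 lower. That is 12.5%, beside 12.1% of all tested genes in either direction and 6.09% with ΔAgo2 lower. The medians of the roles were then -0.29 for the regulators, -0.49 for arrest, -0.54 for apoptosis, -0.22 for metabolism and -0.26 for repair. The same 4 ΔAgo2 libraries enter both fits, so these values are not a second measurement.

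Wild-type replicate 4 deviated from the other wild-type libraries according to the GC content of the gene. Over the 32 p53 genes, Spearman's rho between the GC content of the longest transcript and that deviation in log2 CPM was 0.847, and over all tested genes it was 0.722, both as descriptions because genes of the same library are not independent. The p53 genes were close to other genes in composition, with a median GC content of 49.1% against 49.6% over all tested genes and a median transcript length of 3162 against 3122.5 bases. The largest positive deviations were 2.12 for Trp53 (53.3% GC), 1.91 for Phlda3 (62.6%), 1.83 for Sfn (59.7%) and 1.78 for Bax (63.5%). Other genes rich in GC were not as high, with 0.31 for Bbc3 (65.2%) and -0.18 for Plk3 (58.8%). The most negative deviations were -4.53 for Trp53inp1, -4.15 for Mdm4 and -3.71 for Pmaip1. Its part in the differences between genotypes was not tested beyond leaving the library out and correcting each library for GC content. With that correction the p53 genes had a median of -0.34 on the log2 scale, and 0 were called.

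**Figure D3:**
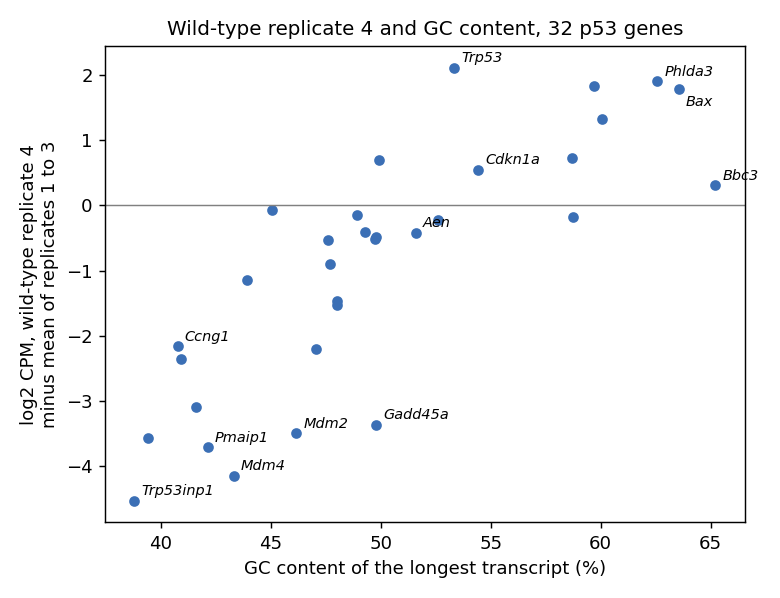
GC content of the longest transcript of each of the 32 p53 genes (x axis, percent) against the log2 CPM of wild-type replicate 4 minus the mean of wild-type replicates 1 to 3 (y axis), one point a gene. The points climb from left to right (Spearman's rho 0.847), with Trp53inp1 at -4.53 at the left and Trp53, Phlda3 and Bax above 1.7 at the right.

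The spread within each genotype was compared next. The SD of log2 CPM was larger in wild-type cells for 31 of the 32 genes (96.9%), with Zmat3 the exception, and for 93.3% of all tested genes. It was larger without wild-type replicate 4 for 26 of 32 (81.2%, beside 78.8% of all genes), the exceptions being Ccng1, Aen, Trp53inp1, Dcxr, Ercc5 and Zmat3. Both shares were near those of all genes. Its median over the 32 was 0.98 in wild-type cells, 0.52 without replicate 4 and 0.33 in ΔAgo2 cells, beside 0.78, 0.43 and 0.23 over all tested genes. Wild-type replicate 4 was the lowest wild-type library for 19 of 32 (59.4%, against 40.2% of all genes). It was the highest for 8 of 32, and for 5433 of the 14228 tested genes. Wild-type replicate 3 was the highest of all 8 libraries for 16 of 32. In ΔAgo2 cells, replicate 3 was the highest for 20 and replicate 4 the lowest for 14. No share over all tested genes was taken for the counts of these replicates, so they are not read as a trait of the p53 genes. As a share of all counts, the 32 genes took 0.394%, 0.336%, 0.446% and 0.287% in wild-type replicates 1 to 4 and 0.290%, 0.287%, 0.343% and 0.257% in ΔAgo2 replicates 1 to 4, with the bounds of the 95% Wilson intervals at most 0.0018 percentage points away, counting error alone. Wild-type replicate 4 was level with ΔAgo2 replicate 2 in that share, and wild-type replicates 1 and 3 were above every ΔAgo2 library.

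**Figure D4:**
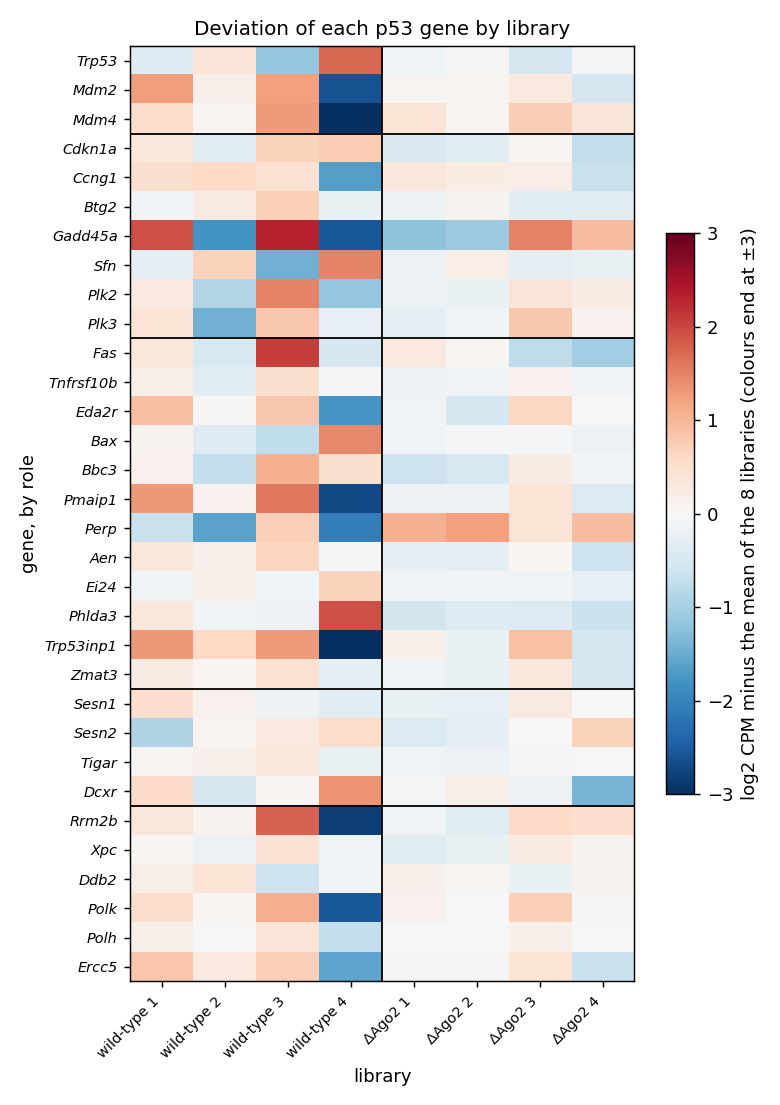
Log2 CPM of each of the 32 p53 genes (rows, grouped by role with black lines between roles) minus its mean over the 8 libraries (columns), from blue (lower) to red (higher), with the colours ending at -3 and 3. The wild-type columns are more strongly coloured than the ΔAgo2 columns, with a median SD of 0.98 against 0.33, and replicate 4 of wild-type holds the darkest blue cells.

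On the TPM scale, which is per transcript length and so allows genes to be compared, 10 of the 32 were above 100 TPM in wild-type cells, 17 lay between 10 and 100 and 5 below 10. With all 4 libraries, the highest levels in wild-type cells were those of Cdkn1a (509 ± 130 TPM, SD, n = 4), Phlda3 (469 ± 245 TPM), Ccng1 (460 ± 263 TPM) and Gadd45a (337 ± 363 TPM). These 4 neighbours overlapped within their SD, and so did Bax (230 ± 110 TPM), Trp53 (219 ± 142 TPM) and Mdm2 (155 ± 108 TPM), which came after. The order among the highest rested on wild-type replicate 4. Without it, wild-type cells were led by Ccng1 (585 ± 97.4 TPM, SD, n = 3), Cdkn1a (520.5 ± 157 TPM), Gadd45a (443 ± 360 TPM) and Phlda3 (348 ± 43.3 TPM). In ΔAgo2 cells the order began with Ccng1 (444 ± 128 TPM), Cdkn1a (357 ± 73.7 TPM) and Phlda3 (249 ± 20.3 TPM). The lowest levels in both genotypes were those of Rrm2b, Ddb2, Sfn, Fas and Perp, from 9.10 ± 8.64 TPM for Rrm2b to 0.130 ± 0.178 TPM for Perp in wild-type cells. Cdkn1a, Phlda3, Ccng1 and Gadd45a were the 4 highest of the 32 genes in both genotypes. Leaving out that library changed their ranks but not which genes they were.

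Since Ago2 acts through miRNAs, the 3′ untranslated regions of 31 of the genes (Bax has none in the transcript used) were searched for the seed matches of a pair of miRNAs with known ties to p53. miR-34a is encoded by a gene that p53 induces, and miR-17 belongs to a cluster known to target Cdkn1a. The mature RNAs are shown with the seed (bases 2 to 8) in capitals, from RefSeq (GRCm38.p6), at chr4:150068473-150068494 and chr14:115043684-115043706, both on the plus strand. The DNA sites below them, in the 3′ untranslated regions of the annotated longest coding transcripts, have the 7 bases that pair with the miR-17-5p seed in capitals, at chr17:29099814-29099836 (plus strand), chr11:40749400-40749422 (minus strand) and chr4:11174212-11174234 (plus strand).
miR-34a-5p: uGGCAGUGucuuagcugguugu
miR-17-5p: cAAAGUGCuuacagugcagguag
Cdkn1a site: cctcagacctgaataGCACTTTg
Ccng1 site: caacatttcatgaatGCACTTTt
Trp53inp1 site: agaatgaacagcacaGCACTTTg
A miR-17-5p match was present in 5 of 31 (16.1%, beside 14.6% of the 12026 tested genes with such a region), namely Cdkn1a, Ccng1, Trp53inp1, Sesn2 and Xpc. A miR-34a-5p match was also present in 5 of 31 (16.1%, beside 17.3%), namely Mdm4, Aen, Ei24, Sesn1 and Rrm2b; both shares were close to those of all tested genes. With a miR-17-5p match, the 5 genes had a median log2 fold change of -0.13, beside -0.33 for those without, and -0.43 beside -0.35 without wild-type replicate 4. For miR-34a-5p it was -0.34 beside -0.29, and -0.29 beside -0.40 without that library. The order of genes with and without a seed match thus turned between the fits for both miRNAs. The mature miRNAs were not measured, and Mir17hg, the host transcript of miR-17, was at 6.57 ± 4.47 and 7.23 ± 2.71 CPM (adjusted p = 0.964, edgeR).

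Further lists place these genes in the wider pathway. Of 18 genes that act on p53 from above, among them the damage kinase genes Atm, Atr, Chek1 and Chek2, 15 could be tested. Cdkn2a, whose Arf product holds back Mdm2, had 0 counts in all 8 libraries, which allows up to 3 counts a library, and the p53 relatives Trp63 and Trp73 were too low to test. Of the 15, 0 had an unadjusted edgeR p under 0.05, where 7.34% of all tested genes did. The median log2 fold change was 0.13, beside -0.11 over all genes. It was above 0 for 10 of the 15, and for 5864 of the 14228 tested genes. Of 12 cell division genes that are known to fall when p53 is active, 0 had an unadjusted edgeR p under 0.05, beside the same 7.34%. Of these 12, 7 were above 0 and the median was 0.05, beside the same values over all genes. The medians were -0.0057 and 0.0021 without wild-type replicate 4. An unadjusted edgeR p under 0.05 was then reached by 1 of the 15, Kat5 (log2 fold change 0.40), and by 2 of the 12, Ccnb2 (0.55) and Cdc25c (-0.55), beside 12.6% of all tested genes, and 0 passed the adjusted p.

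Of 16 other p53 targets, 12 were below 0, beside 58.8% of all tested genes, and the median was -0.48 (-0.28 without wild-type replicate 4). In this list 0 passed the adjusted p, and 3 had an unadjusted edgeR p under 0.05, all with the lower level in ΔAgo2 cells (18.8%, beside 7.34% of all tested genes in either direction and 4.62% lower). There were 4 of 16 without wild-type replicate 4 (25%, beside 12.6% and 7.04%), all lower, and 0 passed the adjusted p. The fourth was Ckap2, which had the smallest adjusted p of the list in that fit (log2 fold change -0.68, adjusted p = 0.150, edgeR). Gdf15, a stress-induced secreted factor, was at 17.2, 1.01, 32.9 and 0.838 CPM in wild-type replicates 1 to 4 and at 1.40, 1.497, 3.77 and 2.10 CPM in ΔAgo2 replicates 1 to 4 (log2 fold change -2.57, standard error 1.03, adjusted p = 0.613, edgeR). Only wild-type replicates 1 and 3 were above the ΔAgo2 libraries. Triap1, an inhibitor of apoptosis, was at 13.5, 14.5, 15.99 and 16.6 CPM in wild-type libraries and at 9.64, 9.62, 11.3 and 10.04 CPM in ΔAgo2 libraries, without overlap (log2 fold change -0.58, adjusted p = 0.666, edgeR), as for 2.98% of all tested genes with ΔAgo2 lower. Abhd4, a lipase, was at 143 ± 55.6 and 78.9 ± 16.04 CPM (log2 fold change -0.86, adjusted p = 0.590, edgeR). The log2 fold changes were -2.95 for Gdf15, -0.52 for Triap1 and -0.60 for Abhd4 without wild-type replicate 4. These lists were described by their counts and medians, and no test of a whole list was made.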

How the data were processed

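RNA of 4 wild-type and 4 ΔAgo2 LLC libraries was sequenced in pairs after a stranded mRNA ligation preparation. Reads were compared with ribosomal RNA sequences first, and the authors then mapped them to mm10 (STAR, per the submitters' processing notes) and deposited whole-number read counts per gene from featureCounts, as raw values. A table of TPM, in which counts are divided by gene length and set to a fixed sum, was deposited by them too. The strand setting and annotation release are not given in the sources used here.

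Groups came from the labels. Genes were named with GENCODE M21 (GRCm38); 93 of 55487 identifiers had no match. Genes passing filterByExpr (14228) were scaled with TMM and tested with edgeR 4.0.16 (R 4.3.3), quasi-likelihood, two-sided, Benjamini-Hochberg adjustment, genotype as the only factor, with the standard error taken as the log2 fold change over the square root of F. On simulated counts, 101 of 200 genes changed by 2 on the log2 scale were called, and 5 of the other genes. Single genes were also tested by an exact permutation test on CPM. Alternatives used DESeq2 1.42.0, limma 3.58.1, other scalings and filters, log2(TPM + 1) and log2(TPM + 0.1), a correction for GC content, the replicate number as a block, and each library left out. Totals of 39628101 to 68530912 counts set the precision, and genes at or under 3 counts were treated as at the floor.

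The 32 genes, their 5 roles and the other lists were chosen with earlier results of these data known. Genes named with every library are Trp53, Mdm2, Cdkn1a and those with an unadjusted p under 0.05 or without overlap; other genes printed by library were chosen after their values were seen. Limma without wild-type replicate 4 was added after the values were seen.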

Additional observations from a re-analysis of the deposited data

Results flagged for a closer look

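Of 64 groups of 4 libraries examined (32 genes in both genotypes), 5 had a library whose gap to its nearest neighbour took up most of the group's range in log2 CPM, beyond Dixon's 95% limit for 4 values; chance alone gives about 5% of groups, and groups of the same libraries are not independent. Ccng1 was lowest in wild-type replicate 4, at 132 CPM beside 567 to 623 (ratio 0.939), and in ΔAgo2 cells it was lowest in replicate 4, at 260 CPM beside 473 to 520 (ratio 0.864). Trp53inp1 was lowest in wild-type replicate 4, at 4.04 CPM beside 68.5 to 111 (ratio 0.854). In ΔAgo2 cells, Polk (ratio 0.853) and Polh (ratio 0.931) were highest in replicate 3, at 82.4 and 48.7 CPM.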

How the results depend on the processing

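0 of the 32 p53 genes were called in any of the 23 alternatives, nor at an adjusted p under 0.1. The number of genes called over all genes, 42, became 143 without a filter, 6 with a CPM filter, 399 with DESeq2, 257 with limma's sample weights, 15 on log2(TPM + 1), 71 with the GC correction, 65 with the GC correction and the replicate block, 79 at an adjusted p under 0.1, 108 with limma-voom without wild-type replicate 4, and 1 to 113 when each library was left out (113 without wild-type replicate 4, 1 without ΔAgo2 replicate 1). The count of p53 genes with an unadjusted p under 0.05, 2, became 1 with library size alone and with the GC correction, 9 with sample weights, 7 with limma-voom and 7 with log2(TPM + 1) when wild-type replicate 4 was left out, and 1 to 6 over the libraries left out. The p53 genes without overlap were 1 to 4 over the same. Their median log2 fold change, -0.33, was 0.082 on log2(TPM + 1), 0.097 on log2(TPM + 0.1), -0.13 with limma-voom, -0.23 with library size alone, and -0.45 to -0.13 over the libraries left out.

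The replicate numbers did not pair the libraries: the correlations of the deviations of same-numbered libraries were -0.14, -0.049, 0.38 and 0.028, and 1 of the 4 numbers matched best with its own. In the fit with a replicate block, 18 genes were called over all genes, 0 p53 genes were called, 1 had an unadjusted p under 0.05, and the median was -0.11. Under the block these log2 fold changes changed sign: Ccng1 0.043, Gadd45a 2.2e-05, Plk2 0.12, Rrm2b 0.090 and Polk 0.36. With the GC correction and the block they were Sfn 0.014, Plk2 0.0092, Bax 0.086, Sesn2 0.25, Xpc 0.020, Ddb2 -0.17, Polk 0.064 and Polh -0.062.

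Single p53 genes, none of them called, also changed sign elsewhere. The GC correction gave Bax 0.071, Sesn2 0.22, Ddb2 -0.26 and Polh -0.078. Library size alone gave Sesn2 0.084 and Polk 0.034, and no filter gave Sesn2 0.0059 and Polk 0.0039. limma-voom gave Ccng1 0.053, Gadd45a 0.032, Plk2 0.095, Trp53inp1 0.080, Rrm2b 0.18 and Polk 0.39. With sample weights they were Trp53 0.23, Mdm4 -0.15, Sfn 0.22, Plk3 -0.20, Bax 0.021, Sesn2 0.23 and Polh -0.15. On log2(TPM + 1) they were Mdm2 0.17, Ccng1 0.26, Gadd45a 0.25, Plk2 0.30, Tnfrsf10b 0.055, Eda2r 0.18, Bax 0.0082, Trp53inp1 0.20, Sesn1 0.12, Sesn2 0.20, Tigar 0.053, Rrm2b 0.22, Xpc 0.10, Polk 0.57 and Ercc5 0.063. On log2(TPM + 0.1) they were Mdm2 0.19, Ccng1 0.26, Gadd45a 0.26, Plk2 0.33, Tnfrsf10b 0.057, Eda2r 0.21, Bax 0.0087, Pmaip1 0.040, Trp53inp1 0.34, Sesn1 0.13, Sesn2 0.20, Tigar 0.060, Rrm2b 0.46, Xpc 0.11, Polk 0.64 and Ercc5 0.085. Without wild-type replicate 4, chosen after seeing the data, limma-voom gave Trp53 0.25, Mdm4 -0.23, Sfn 0.23, Bax 0.26, Sesn2 0.18 and Polh -0.15, and log2(TPM + 1) gave Trp53 0.28, Mdm4 -0.18, Sfn 0.12, Bax 0.29, Sesn2 0.22 and Polh -0.10. Over the libraries left out, the genes that changed sign ranged as follows: Trp53 -0.97 to 0.13, Mdm4 -0.29 to 0.62, Ccng1 -0.43 to 0.054, Plk2 -0.52 to 0.52, Plk3 -0.21 to 0.43, Eda2r -0.56 to 0.025, Bax -0.70 to 0.21, Sesn1 -0.22 to 0.087, Sesn2 -0.31 to 0.15, Rrm2b -0.73 to 0.47, Xpc -0.22 to 0.051, Ddb2 -0.13 to 0.18, Polk -0.36 to 0.43, Polh -0.16 to 0.17. The cause of these changes was not tested. Aen, Bbc3, Btg2, Cdkn1a, Dcxr, Ei24, Phlda3 and Zmat3 kept their sign in the 23 alternatives, and Fas and Perp in the 22 that tested them, since the CPM filter removed both. With 4 libraries a group and this spread, the simulation recovered 101 of 200 genes changed by 2 on the log2 scale, and smaller differences were not simulated.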
